A study of Rhinolophus ferrumequinum with 8 samples.

Results

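The mitosis genes are 31 genes whose products carry a cell from the G2 phase through chromosome segregation to cytokinesis. They were taken by gene name from a table of 19652 protein-coding genes in RNA-seq data from the whole spleen of the greater horseshoe bat (Rhinolophus ferrumequinum), a hibernator, and each name matched 1 row. All bats were wild females. The 8 libraries fell into 4 states of 2 biological replicates each, numbered 1 and 2. Summer active bats were sampled in July, and torpor (the cold resting phase of a hibernator), arousal (2 h after capture) and winter active (26 h after capture) bats in November. Summer active is thus the state outside hibernation, and season and hibernation cannot be told apart between it and the other states. No bat's age is given in the sources used here, the labels tie no bat to more than 1 library, and p-values measure the spread between these few animals.

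Mitosis is driven by the cyclin B-CDK1 kinase, which starts chromosome condensation and spindle assembly. Its partners PLK1 and the Aurora kinases act at centrosomes and kinetochores, the spindle checkpoint holds cells until every chromosome is attached, and the anaphase-promoting complex (APC/C) then has cyclin B destroyed. Most of these genes are transcribed only in dividing cells, late in the cell cycle, under the MuvB complex with B-MYB (MYBL2) and FOXM1. In spleen, dividing cells include B cells of germinal centres, activated T cells, and, in many mammals, red cell precursors of the red pulp.

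Levels are given in rescaled TPM, which divides by transcript length, so levels may be compared between genes. Differences were taken after log2(value + 1), where the added 1 shrinks the change of genes with low values. A gene was called when limma's Benjamini-Hochberg adjusted p, taken over all 13542 genes with a mean of at least 1, was under 0.05. Depth is unknown because no counts were among the values analysed, and no counting interval is given. Column totals were 1276851 and 1331820 in summer active and 986814 and 998271 in torpor. They were 745098 and 780490 in arousal and 929456 and 828257 in winter active. The median ratio of a library to the geometric mean of all libraries, over genes above 0 in each, ran only from 0.927 to 1.04. Replicates correlated at r = 0.915 (summer active) to 0.959 (winter active) over log2 values of the tested genes. B-cell and macrophage genes were present in each library, with CD79A at 184 to 1071 and CSF1R at 221 to 1178, while hepatocyte genes also appeared, with ALB at 9.78 to 12262.

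All 31 mitosis genes were tested and none was listed at 0 in any library. The mean over the 8 libraries ran from 2.16 for ASPM, a spindle pole protein, to 80.7 for BIRC5 (survivin), with a median of 11.4 over the genes. Summer active 2 held the highest value of 30 genes, and arousal 2 held that of ANLN. Arousal 2 also held the lowest value of 26 genes, winter active 2 that of 3, and torpor 1 and torpor 2 that of 1 each. The median distance of the 31 genes from their own 8-library mean was 0.93 and 1.73 in summer active 1 and 2, 0.03 and -0.09 in torpor, -0.34 and -0.99 in arousal, and -0.53 and -0.73 in winter active. The summer libraries therefore stood above all others, and the torpor libraries above the other 4 November libraries.

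**Figure D1:**
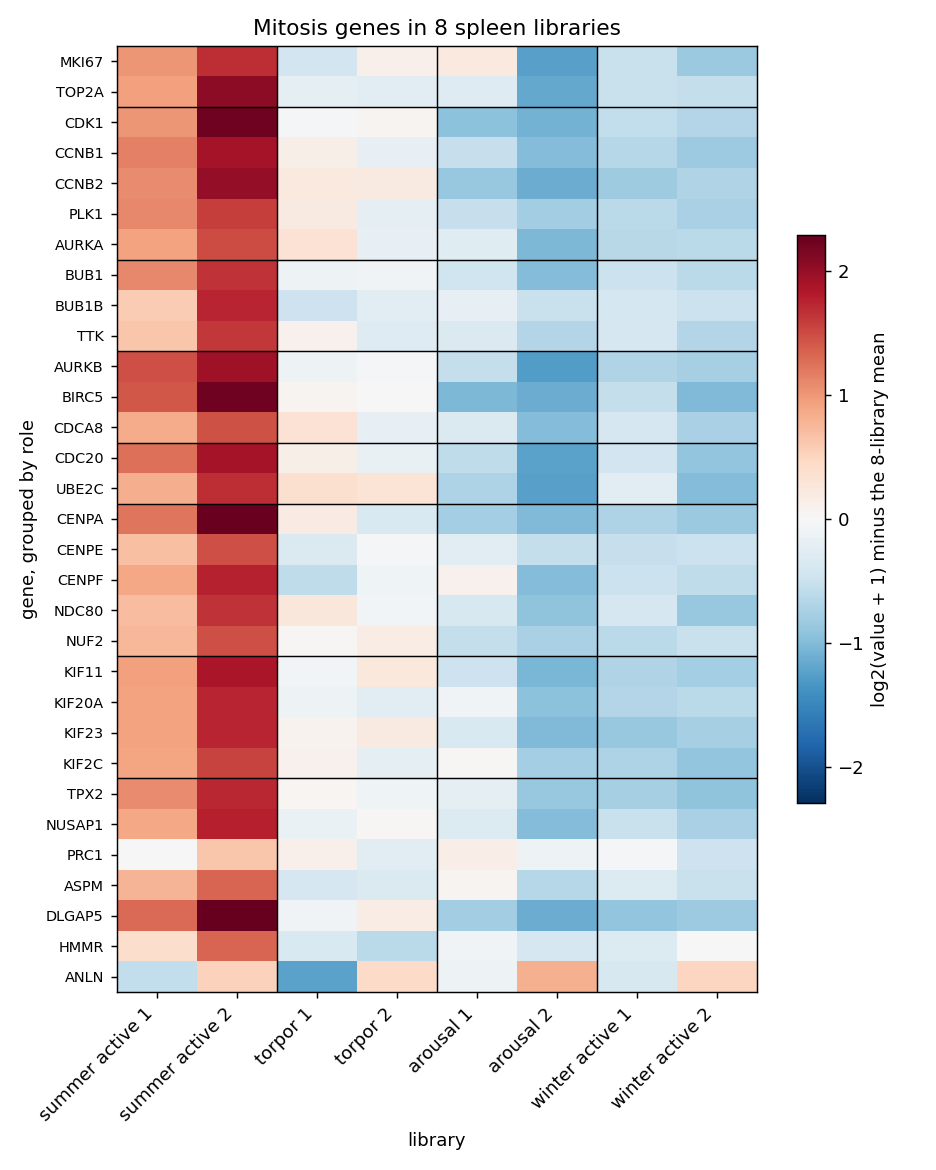
Each row is a mitosis gene, grouped by role between the horizontal lines, and each column a library. Colour gives log2(value + 1) minus the gene's 8-library mean. The 2 summer active columns are red in nearly every row, summer active 2 the more so, and arousal 2 is the bluest column, while the bottom row (ANLN) departs from this order.

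November against summer asks how the 3 hibernation-season states, averaged with equal weight, differed from summer. Mitosis genes lay lower in November almost without exception: 30 of 31 differences were below 0, with a median of -1.79 against 0.03 over all tested genes. Of the 31, 23 fell, a share to be read against 2.26% of all tested genes called lower, and none was called higher (0.657% of all genes). In 29 genes every November library lay below both summer libraries, as did 10.3% of all tested genes. In bulk spleen RNA, fewer dividing cells and less of these transcripts per cell cannot be told apart.

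Role medians ran from -2.28 for the chromosomal passenger complex to -1.42 for spindle assembly and cytokinesis. The passenger complex corrects wrong attachments of chromosomes to the spindle and directs cytokinesis. BIRC5, its survivin subunit (NCBI gene 117014004), stood at 151 and 265 in summer active 1 and 2, 58.1 and 55.7 in torpor, 26.6 and 24.8 in arousal, and 37.5 and 27.1 in winter active. The BIRC5 values lay in 3 levels without overlap, summer above torpor above the other November libraries. Limma called none of the steps that involve torpor. Adjusted p was 0.0596 for torpor against summer, 0.162 for arousal against torpor and 0.331 for winter active against torpor. Each of the 2 steps taken alone, without overlap, was seen in 26.0% and 12.5% of all tested genes. The log2 difference of BIRC5 was -2.44 (SE 0.24, adjusted p = 0.00481), from a summer mean of 208 ± 80.4 (SD, n = 2). AURKB, the kinase of the complex (NCBI gene 117013433), stood at 29.9 and 41.9 in summer, 9.27 and 9.90 in torpor, 6.59 and 3.60 in arousal, and 5.85 and 5.52 in winter active (difference -2.28, SE 0.24, adjusted p = 0.00659). CDCA8 (borealin), a scaffold of the same complex, fell less, by 1.55 on the log2 scale (adjusted p = 0.0398). INCENP, the fourth subunit and not a member of the 31, fell by 1.30 (adjusted p = 0.033).

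The kinases and cyclins that drive entry into mitosis all fell, 5 of 5. CCNB1, the main mitotic cyclin (NCBI gene 117024444), stood at 54.6 and 92.2 in summer, 26.2 and 20.8 in torpor, 16.2 and 11.5 in arousal, and 14.9 and 13.0 in winter active. Its difference was -2.04 (SE 0.25, adjusted p = 0.0100). CCNB2, the second B-type cyclin, went from 20.7 and 40.7 in summer to 11.0 and 10.8 in torpor, then to 4.60 and 3.65 in arousal and 4.85 and 5.405 in winter active (difference -2.06, adjusted p = 0.0124). As with BIRC5, the torpor values of both cyclins lay between the summer values and those of the other November states, with no overlap. No difference that involves torpor was called for either cyclin. CDK1, the kinase that these cyclins activate, stood at 37.9 and 88.8 in summer, 17.6 and 19.2 in torpor, 9.01 and 8.08 in arousal, and 12.1 and 11.1 in winter active (difference -2.16, SE 0.30, adjusted p = 0.0154). PLK1, the polo-like kinase, and AURKA, the centrosomal Aurora kinase, fell by 1.79 and 1.61 (adjusted p = 0.0138 and 0.0328).

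Genes of the exit from mitosis fell as well. CDC20, which activates the APC/C at anaphase, stood at 32.7 and 51.7 in summer, 14.4 and 11.5 in torpor, 8.44 and 5.03 in arousal, and 9.41 and 6.55 in winter active (difference -2.11, SE 0.27, adjusted p = 0.0130). UBE2C, the ubiquitin-conjugating enzyme that works with the APC/C, stood at 7.88 and 15.1, 5.41 and 5.25, 2.06 and 1.10, and 3.23 and 1.502 in the same order of states. It fell by 1.68 (SE 0.33, adjusted p = 0.0449), and its torpor level was still 46.4% of the summer mean, the highest share among the 29 genes whose November and summer libraries did not overlap.

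The spindle checkpoint genes lay lower by similar amounts, but the test split them. BUB1, a checkpoint kinase at kinetochores, stood at 10.3 and 15.7 in summer, 3.89 and 3.97 in torpor, 2.84 and 1.67 in arousal, and 2.73 and 2.46 in winter active, and it fell by 1.84 (adjusted p = 0.0138). BUB1B (BUBR1), part of the complex that blocks CDC20, stood at 7.81 and 18.8 in summer and between 3.11 and 4.13 in all 6 November libraries. Its difference of -1.56 did not pass (adjusted p = 0.0506), nor did that of TTK, the kinase that starts checkpoint signalling (-1.50, adjusted p = 0.0521), which stood at 6.03 and 13.0 in summer and 1.85 to 3.85 in November. Both adjusted p lay just above the threshold, so the split is not a difference between the genes. In BUB1B and TTK the November libraries did not reach the lower summer library, as in most mitosis genes. Their summer replicates lay far apart, as did those of called genes such as CDK1 and CENPA.

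Among centromere and kinetochore genes, 4 of 5 fell. CENPA, the histone H3 variant that marks centromeres (NCBI gene 117032976), stood at 13.2 and 28.1 in summer, 5.93 and 3.78 in torpor, 2.51 and 2.00 in arousal, and 2.73 and 2.34 in winter active (difference -2.33, SE 0.31, adjusted p = 0.0138). Its arousal mean was 10.9% of the summer mean, the lowest share of any mitosis gene in any state. NUF2, a subunit of the NDC80 complex that grips microtubules, stood at 19.4 and 32.5, 11.3 and 12.6, 7.28 and 6.17, and 6.83 and 7.49 over the 4 states (difference -1.49, adjusted p = 0.0224). Its partner NDC80 fell by 1.57 and the kinetochore motor CENPE by 1.44 (adjusted p = 0.0478 and 0.0445). CENPF, a large kinetochore protein, differed by -1.77 without passing (adjusted p = 0.0537), and its arousal replicates stood at 2.98 and 0.881.

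All 4 spindle motors fell. KIF11, the kinesin that pushes spindle poles apart, stood at 15.3 and 30.05 in summer, 7.15 and 9.02 in torpor, 5.09 and 3.11 in arousal, and 4.26 and 3.93 in winter active (difference -1.87, SE 0.29, adjusted p = 0.0244). KIF23, a kinesin of the central spindle, stood at 7.07 and 13.3, 3.49 and 3.86, 2.34 and 1.11, and 1.33 and 1.51 over the same states (difference -1.79, adjusted p = 0.0285). KIF20A, which carries the passenger complex to the midzone, and KIF2C, which depolymerises microtubules, fell by 1.79 and 1.65 (adjusted p = 0.0351 and 0.0374). In each motor gene the lower summer library exceeded the highest November library.

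The remaining roles were mixed. TOP2A, which untangles sister chromosomes, stood at 19.1 and 42.0 in summer, 7.95 and 7.79 in torpor, 7.52 and 3.60 in arousal, and 6.26 and 6.12 in winter active, and it fell by 2.00 (SE 0.34, adjusted p = 0.0319). MKI67, the Ki-67 protein used as a marker of dividing cells, stood at 19.4 and 31.7, 6.55 and 10, 10.9 and 3.30, and 6.13 and 4.65. All 6 November values of MKI67 were below both summer values, yet its difference of -1.79 (SE 0.41) did not pass (adjusted p = 0.0643), and the arousal pair spanned the range of the other November libraries. DLGAP5 and TPX2, which build spindle microtubules around chromosomes, fell by 2.39 and 1.88 (adjusted p = 0.00944 and 0.0138). DLGAP5 stood at 21.9 and 44.9, 7.84 and 9.53, 4.41 and 3.27, and 3.98 and 4.28 over the 4 states, and TPX2 at 24.6 and 39.1, 11.5 and 10.3, 9.32 and 5.65, and 6.10 and 5.38. NUSAP1, a microtubule bundler, fell by 1.79 (adjusted p = 0.0287). ASPM at -1.42 and the spindle protein HMMR at -1.16 did not pass (adjusted p = 0.0501 and 0.0813).

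**Figure D2:**
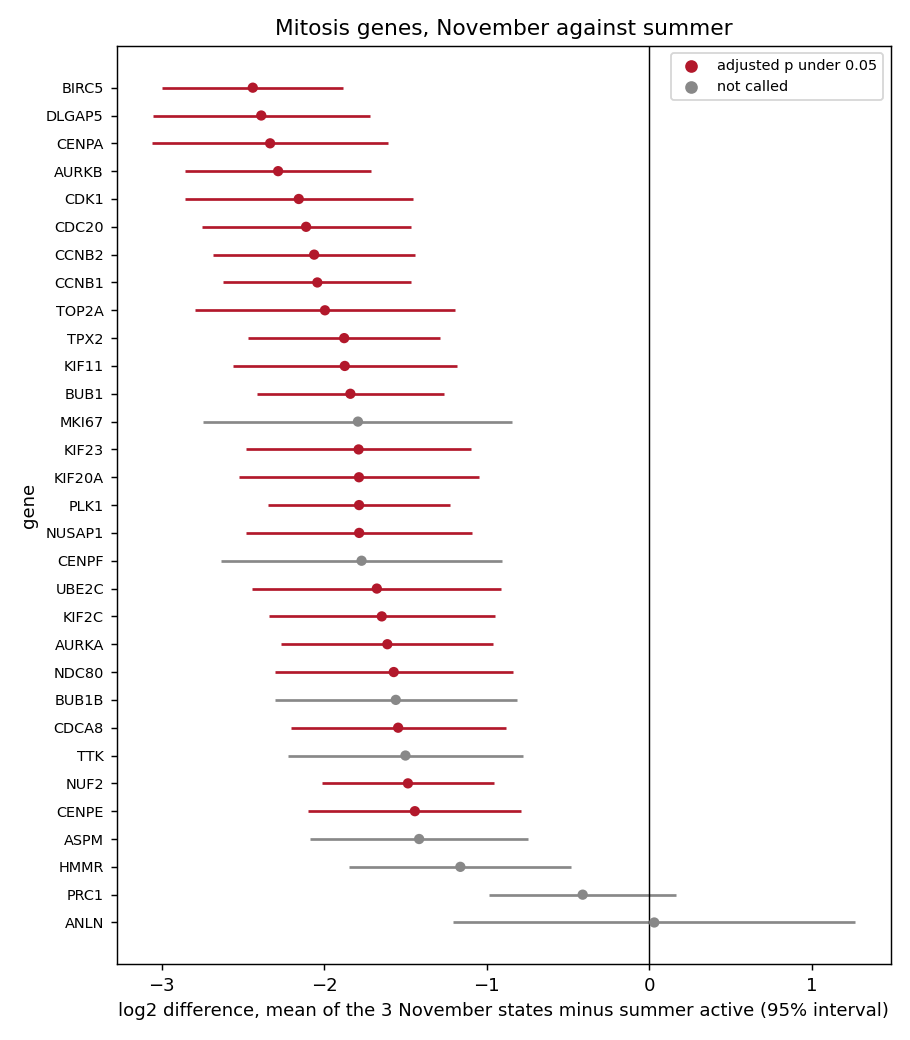
Points give the log2 difference of each mitosis gene between the mean of the 3 November states and summer active, and lines the 95% interval of limma's moderated estimate. Red marks the 23 genes called at an adjusted p under 0.05 and grey the 8 that were not, and only the intervals of PRC1 and ANLN reach 0.

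PRC1 and ANLN were the 2 genes whose November and summer libraries overlapped. PRC1, which bundles the microtubules of the central spindle, stood at 11.7 and 18.8 in summer, 12.9 and 9.85 in torpor, 13.3 and 10.9 in arousal, and 11.4 and 8.21 in winter active. Its difference was -0.41 (95% interval -0.98 to 0.16, adjusted p = 0.354). ANLN (anillin), which ties the actin ring to the membrane during cytokinesis, stood at 6.63 and 15.2 in summer, 3.84 and 14.3 in torpor, 9.45 and 19.0 in arousal, and 7.77 and 14.9 in winter active. Within every state the library numbered 2 was the higher, by up to 3.73 times in torpor, and the states overlapped throughout. The difference of ANLN was 0.03 (95% interval -1.21 to 1.27, adjusted p = 0.978), so its interval allows a change of either direction.

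**Figure D3:**
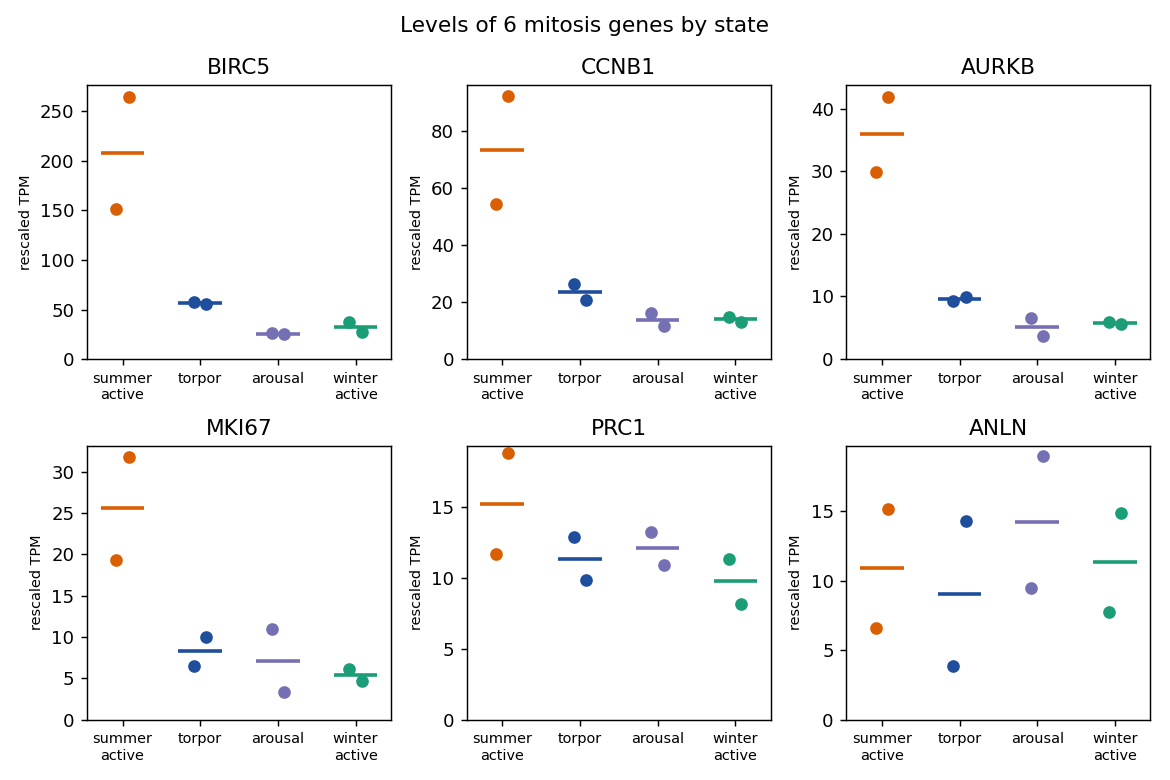
Each panel shows 1 gene in rescaled TPM from 0, with points for the libraries and a bar for the mean of each state. BIRC5, CCNB1 and AURKB step down from summer active through torpor to arousal and winter active. MKI67 does so in its means only, as its arousal libraries overlap those of torpor. No step that involves torpor was called for these genes. PRC1 stays between 8.21 and 18.8, and ANLN shows no order of states.

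How many mitosis genes were called depended on the libraries kept, while ANLN was the only mitosis gene whose sign turned in November against summer when a library was left out. The count of 23 became 1 without summer active 2, 6 without winter active 2, 11 without torpor 1, torpor 2 or winter active 1, and 12 with no filter on low genes, and BIRC5 was called in all 8 fits that left out a library. Of the 31 genes, at least 30 were below 0 in each of those 8 fits, with medians from -2.14 to -1.38. Calls over all tested genes also changed when a library was left out, so the changes in count are not particular to mitosis genes. When columns were set to totals of 1000000, the median over all genes moved from 0.03 to 0.54, and 283 genes were called lower and 4469 higher, against 306 and 89 as deposited. After that rescaling the mitosis median was -1.30, 27 of the 31 were called lower, and the difference of PRC1 turned to 0.13.

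Torpor against summer asks whether the lower levels were already present in hibernating bats. All 31 differences were below 0 (median -1.40, against -0.06 over all genes), and in 29 genes both torpor libraries lay below both summer libraries, as in 26.0% of all tested genes. No mitosis gene was called by limma, while 28 had an unadjusted p under 0.05 in the lower direction, as did 9.71% of all tested genes, and 0.487% of all genes were called lower. BIRC5 (-1.80, adjusted p = 0.0596) and AURKB (-1.78, adjusted p = 0.0633) came nearest to the threshold. Differences of CENPA, DLGAP5, TOP2A and CDK1 were -1.82, -1.75, -1.73 and -1.61 (adjusted p = 0.101, 0.0907, 0.137 and 0.121), and that of UBE2C was -0.92 (adjusted p = 0.320). Without summer active 1 the count was 8 and the median -1.78, and without summer active 2 the count was 0 and the median -0.97. Over all genes 66 were called lower and 10 higher as deposited, and 36 and 20 with columns set to equal totals.

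Arousal against summer and winter active against summer use the same summer libraries as above and are given beside each other. At 2 h after capture 22 of 31 mitosis genes fell, against 3.14% of all tested genes, with a median of -1.95 (0.08 over all genes). BIRC5 differed by -2.91, DLGAP5 by -2.75, CENPA by -2.65, CDK1 by -2.63, AURKB by -2.62 and CCNB2 by -2.56 (adjusted p = 0.00624, 0.0132, 0.0209, 0.0185, 0.0101 and 0.0134). At 26 h after capture 14 of 31 fell, against 0.894% of all tested genes, with a median of -1.99 (0.05 over all genes). There DLGAP5 differed by -2.66, BIRC5 by -2.61, CENPA by -2.53, AURKB by -2.45 and CDK1 by -2.23 (adjusted p = 0.0217, 0.0131, 0.0349, 0.0172 and 0.0454). MKI67 passed in neither, at -1.85 and -2.02 (adjusted p = 0.0690 and 0.147). Groups did not overlap, with summer higher, in 29 genes for arousal and 30 for winter active (25.3% and 21.9% of all tested genes). The count for arousal was 0 without arousal 2, 1 without arousal 1, 2 without summer active 2, 13 without either torpor library and 10 without either winter active library, 12 with no filter and 0 when only the 2 states were fitted. For winter active it was 0 without either winter active library, 1 without summer active 2, 2 without either torpor library, 5 without arousal 1, 6 without arousal 2, 22 without summer active 1, 3 with no filter, 7 with a replicate block and 0 with only the 2 states. Calls over all tested genes also changed in most fits that left out a library, so these changes in count are not particular to mitosis genes. Setting columns to equal totals turned the split of all calls from 425 lower and 323 higher to 263 and 5868 for arousal. For winter active the split went from 121 and 19 to 117 and 661. With equal totals, 21 mitosis genes were called lower in arousal and 13 in winter active.

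As a share of the summer mean, the median mitosis gene kept 32.4% in torpor, 21.97% in arousal and 19.6% in winter active, while the median over the 13530 tested genes with a summer level above 0 was 95.3%, 106% and 103%. In each of the 3 states 29 genes were under 50% of the summer mean, as were 10.9%, 9.74% and 7.43% of those 13530. Those under 25% numbered 3 in torpor, 21 in arousal and 26 in winter active, against 3.24%, 3.16% and 3.61% of the 13530. The range over genes ran from 22.5% (CENPF) to 83.1% (ANLN) in torpor and from 12.3% (CENPA) to 104% (ANLN) in winter active.

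**Figure D4:**
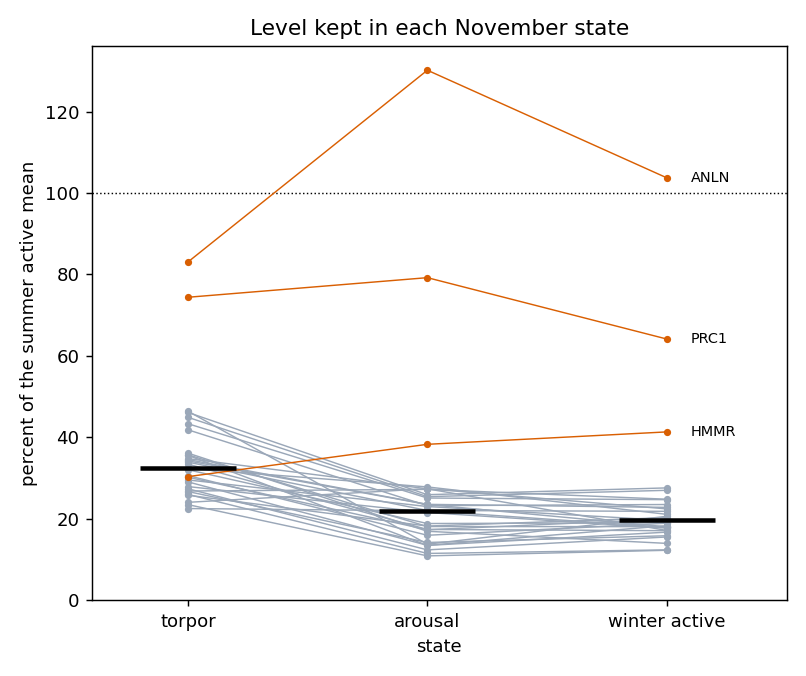
Each line joins 1 gene's mean in torpor, arousal and winter active, as a percent of its summer active mean, and black bars give the median over the 31 genes (32.4%, 21.97% and 19.6%). Orange marks ANLN, PRC1 and HMMR, which lie above the other genes in arousal and winter active.

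Arousal against torpor and winter active against torpor ask whether mitosis genes differed once bats had left torpor. A time after capture is given for arousal and winter active only, so leaving torpor and the time since capture cannot be told apart. In arousal 26 of 31 lay below torpor (median -0.66, against 0.11 over all genes), and in winter active 29 of 31 (median -0.65, against 0.08). Libraries did not overlap, with torpor higher, in 21 genes for arousal and 25 for winter active, against 22.2% and 21.3% of all tested genes. No gene of the whole table was called by limma in either comparison (0% of 13542), while 10 and 7 mitosis genes had an unadjusted p under 0.05, all lower, as did 6.88% and 4.11% of all genes in that direction. With columns set to equal totals, arousal against torpor had 4 genes called lower and 437 higher, and the median over all genes moved from 0.11 to 0.45. No mitosis gene was among those calls, 24 of 31 lay below torpor, and their median was -0.38. The mean of arousal and winter active against torpor, a comparison added after the values were seen, had a median of -0.67 with 28 of 31 below torpor, and no gene was called in the values as deposited. With equal totals it had 8 genes called lower and 280 higher, no mitosis gene among them, 25 of 31 below torpor and a mitosis median of -0.45 (0.35 over all genes). As deposited, 14 mitosis genes had an unadjusted p under 0.05 in the lower direction (6.2% of all genes), and in 21 all 4 later libraries lay below both torpor libraries (12.5% of all genes).

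The 4 lowest differences from torpor in that added comparison were those of UBE2C at -1.14, CCNB2 at -1.09, BIRC5 at -0.97 and DLGAP5 at -0.96 (adjusted p = 0.174, 0.148, 0.149 and 0.181), and that of CDK1 was -0.82 (adjusted p = 0.225). State means ran summer, torpor, then both later states in 26 of 31 genes, an order that 11.9% of all tested genes showed. The 5 others were BUB1B, ASPM, HMMR, PRC1 and ANLN. HMMR stood at 5.99 and 12.3 in summer, 3.13 and 2.43 in torpor, 3.99 and 3.02 in arousal, and 3.23 and 4.34 in winter active, so both winter active values were above both torpor values, as in 29.6% of all tested genes. ASPM stood at 3.83 and 6.10 in summer, and its November values, 0.777 to 1.94, had both extremes in arousal.

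Winter active against arousal asks whether levels differed between 2 h and 26 h after capture. The median difference was 0.02 (-0.04 over all genes), and -0.15 with columns set to equal totals (-0.22 over all genes), and as deposited 18 genes were above 0 and 13 below. No mitosis gene and no gene of the whole table (0%) was called by limma, none of the 31 had an unadjusted p under 0.05 in either direction (2.37% of all genes did in the lower direction and 3.08% in the higher), and the smallest adjusted p among them was 0.852. Both winter active libraries lay above both arousal libraries in 3 genes, CCNB2, CDK1 and BIRC5 (18.1% of all genes). The interval for CDK1 ran from -0.46 to 1.26, which includes changes in either direction.

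The summer active and the arousal replicates differed for the mitosis genes as a block. Summer active 2 was above summer active 1 in all 31, by a median of 1.88 times (1.40 to 2.40), while 53.8% of all tested genes were higher in that library. Other lists differed between these 2 libraries too. Summed levels in summer active 1 and 2 were 2895 and 61.5 for hepatocyte markers, 14666 and 4631 for macrophage and 536 and 205 for endothelial. They were 269 and 34.9 for neutrophil precursor and 148 and 325 for germinal centre B-cell markers. Summer active 2 held the lowest value of 9 of 12 macrophage and 7 of 7 neutrophil precursor markers, and the part of this in its high mitosis values was not tested. Without summer active 2 the median difference in November against summer was -1.38 instead of -1.79. Arousal 2 was below arousal 1 in 30 of 31, with a median ratio of 0.611 (50.6% of all genes were lower). The torpor and winter active pairs had median ratios of 0.980 and 0.899, with replicate 2 the lower in 17 and 22 of 31 (47.2% and 47.6% of all genes). In arousal 2 the summed level of 11 hepatocyte markers was 20590, against 49.5 to 2895 in the other libraries. Summed levels of 6 pancreatic markers were 1416 and 347 in torpor 1 and 2, 770 in arousal 2, and 14.3 to 112 elsewhere. The part of either list in the mitosis values of any library was not tested. Without arousal 2 the median difference from summer was -1.58 instead of -1.95, and from torpor -0.36 instead of -0.66.

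The other genes of the cell cycle, in 11 lists, showed which neighbours of the mitosis genes moved in November against summer. Counts of genes that fell in these lists are to be read against 2.26% of all tested genes called lower. Calls of single genes also depended on the setting and on the libraries kept. With no filter on low genes, 38 genes named for November against summer lost their call, and 57 were unchanged. In arousal against summer, 14 named genes lost their call when only those states were fitted, and 1 was unchanged. These counts include mitosis genes. Other motors and spindle factors fell in 14 of 29 tested (median -1.45), led by CDCA3, an adaptor in cell cycle protein turnover (-2.62, adjusted p = 0.00484), the minus-end motor KIFC1 (-2.19, adjusted p = 0.00728) and KIF22 (-1.80, adjusted p = 0.00726). The others were the kinesins KIF4A (-1.93), KIF14 (-1.77), KIF15 (-1.54) and KIF18B (-2.26), the spindle proteins CKAP2 (-1.87), SPAG5 (-1.80), KNSTRN (-1.76) and TACC3 (-1.73), the centrosomal kinase NEK2 (-2.15), INCENP and the cytokinesis factor ECT2 (-1.45), with adjusted p from 0.0106 to 0.044. G2/M entry regulators fell in 8 of 13 (median -1.35). They were CDC25B, a phosphatase that switches CDK1 on (-2.19), CDKN3 (-2.28), CKS1B (-1.03), CKS2 (-1.35), CCNA2 (cyclin A2, -1.92), CCNF (-1.93), CDC25C (-1.90) and GTSE1 (-1.74), with adjusted p = 0.00484, 0.00616, 0.0141, 0.0413, 0.0285, 0.0244, 0.0150 and 0.0153. Other kinetochore and checkpoint genes fell in 7 of 29 (median -0.83), with CENPT at -2.12 and SKA3 at -1.17 (adjusted p = 0.00484 and 0.0130), then PMF1 (-1.81), SPC24 (-1.69), CENPW (-1.75), CENPP (-1.60) and CENPM (-0.86), with adjusted p from 0.0199 to 0.0416. CENPN (-2.02) and SKA2 (-1.04) passed in arousal against summer (adjusted p = 0.0467 and 0.0474). MAD2L1, the core of the checkpoint, did not pass at -1.03 (adjusted p = 0.107).

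The lists of condensin, of cohesin and separation and of APC/C genes had medians between -0.79 and -0.09. The condensin subunits NCAPH and NCAPG fell (-2.23 and -1.84, adjusted p = 0.0106 and 0.0206), 2 of 8 in that list (median -0.79), and NCAPH2 did not pass at -0.57 (adjusted p = 0.0712). In the list of cohesin and separation genes 3 of 13 fell (median -0.09): the securin PTTG1 (-2.18), the shugoshin SGO1 (-1.62) and the separase ESPL1 (-1.40), with adjusted p = 0.00726, 0.0416 and 0.0470, none of them a core cohesin subunit. Of 17 APC/C genes (median -0.17) 2 fell, the inhibitor FBXO5 (-2.30, adjusted p = 0.0277) and the enzyme UBE2S (-1.29, adjusted p = 0.0242). ANAPC2, a core subunit, did not pass at -0.39 (adjusted p = 0.235), and its sign turned after rescaling of columns. DNA replication genes of S phase fell in 7 of 30 (median -0.86). These were RRM2 (-2.74), TYMS (-2.11), UHRF1 (-1.92), CDT1 (-1.64), TK1 (-1.56), MCM3 (-1.26) and GINS3 (-1.02), with adjusted p from 0.0138 to 0.0485. MCM5 (-1.47) and RFC4 (-1.10) passed in arousal against summer (adjusted p = 0.0486 and 0.0474).

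Among regulators of mitotic transcription 2 of 15 fell (median -0.34), MYBL2 and FOXM1. MYBL2, the B-MYB factor, stood at 55.4 and 114 in summer, 24.0 and 16.7 in torpor, 20.4 and 9.24 in arousal, and 14.8 and 15.5 in winter active (difference -2.23, SE 0.36, adjusted p = 0.0270). FOXM1, the forkhead factor of G2, stood at 3.12 and 4.97, 1.68 and 1.29, 0.969 and 0.678, and 1.05 and 0.934 (difference -1.26, adjusted p = 0.0464). RBL2 (p130), the pocket protein of the DREAM complex that represses cell cycle genes in resting cells, stood at 14.5 and 17.0 in summer, 15.0 and 15.6 in torpor, 35.3 and 29.2 in arousal, and 25.2 and 29.1 in winter active. RBL2 rose in arousal against summer (0.99, adjusted p = 0.0427) and did not pass over the 3 November states (0.57, adjusted p = 0.110). E2F factors and partners fell in 3 of 7 (median -1.63): E2F2 (-3.98), TFDP2 (-2.02) and E2F1 (-1.87), with adjusted p = 7.81e-04, 0.0289 and 0.0350.

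Brakes and drivers of G1 were counted in the same way, and a difference between these lists was not tested. Of 6 CDK inhibitors 2 fell, against 2.26% of all tested genes: CDKN2D (-1.68) and CDKN2C (-1.35), with adjusted p = 0.0271 and 0.0322. CDKN1A (p21) and CDKN1B (p27) did not pass (-0.51 and -0.41, adjusted p = 0.2998 and 0.383), and both signs turned after rescaling of columns. No G1 cyclin or kinase among 8 was called by limma in November against summer, while 4 had an unadjusted p under 0.05 in the lower direction (11.6% of all tested genes) and 1 in the higher (11.5%). CCNE1 differed by -0.89, CDK2 by -0.86 and the cyclin D gene CCND1 by 0.92 (adjusted p = 0.0659, 0.0681 and 0.131). CCNE1 passed in arousal against summer (-1.14, adjusted p = 0.0476).

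The mitosis list was set against the S-phase list library by library. The median distance of mitosis genes exceeded that of S-phase genes by 0.69 and 0.66 in summer active, by 0.02 and 0.09 in torpor, and by -0.03 and -0.59 in arousal and -0.28 and -0.43 in winter active. Both summer libraries were thus higher for mitosis than for S phase by nearly the same amount, although they differed from each other in either list.

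Cell type markers were counted in November against summer, and the lists differed in direction. Of all tested genes 2.26% were called lower and 0.657% higher, and their median difference was 0.03. Erythroid markers fell in 15 of 16 (median -4.59), with summed levels of 6327 and 9387 in summer against 78.3 to 243 in November. The embryonic globin HBZ was listed at 0 in both arousal libraries and in winter active 2, and HBM in arousal 1 and winter active 2. B-cell markers fell in 4 of 14 (median -1.25), with summed levels of 2975 and 3459 against 774 to 1639, and germinal centre B-cell markers in 3 of 8 (median -1.76), with 148 and 325 against 79.8 to 133. T-cell markers fell in 1 of 10 (median -0.79), with 244 and 319 against 114 to 236. None of the B-cell, germinal centre or T-cell markers was listed at 0. Neutrophil precursor markers were above summer in 7 of 7 (median 0.66), plasma cell markers in 7 of 9 (median 0.31) and macrophage markers in 10 of 12 (median 0.78), none of them called. The part of these cell types in the levels of the mitosis genes was not tested.

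The same lists were counted after torpor. In winter active against torpor, 13 of 14 B-cell markers lay above torpor (median 0.61) and 6 of 8 germinal centre markers (median 0.13), while erythroid markers had 10 of 16 below (median -0.34) and mitosis genes 29 of 31. None of these genes was called by limma there, and the difference between the lists was not tested.

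**Figure D5:**
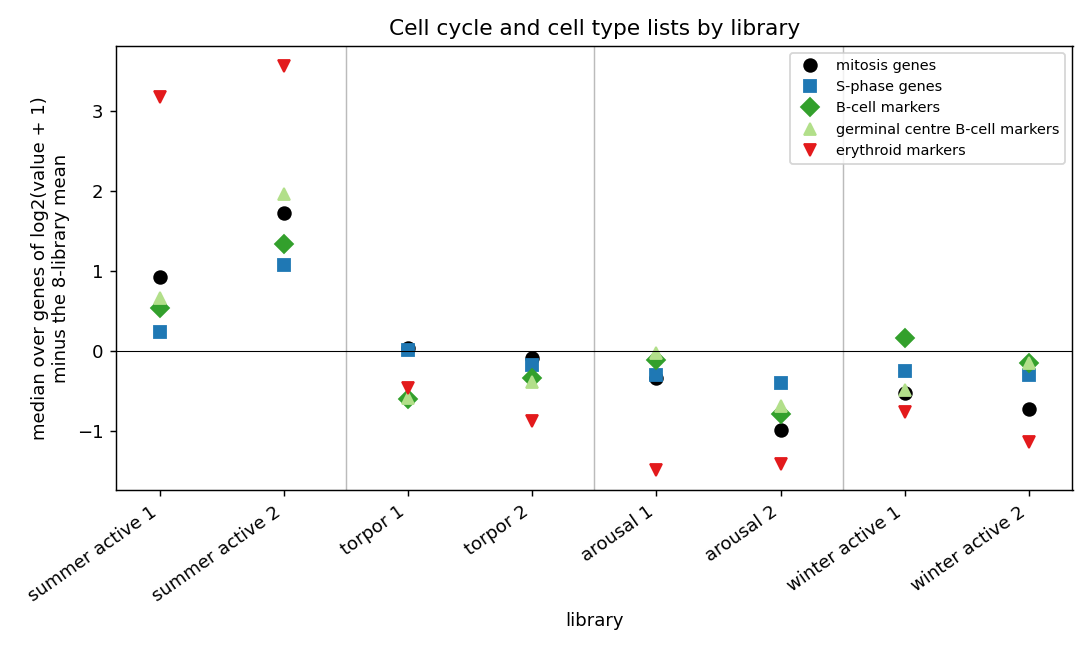
Each point is the median over the tested genes of a list of log2(value + 1) minus the gene's 8-library mean, in 1 library. All 5 lists are highest in the summer active libraries, erythroid markers by the widest margin, and mitosis genes (black circles) go from 0.03 and -0.09 in torpor to between -0.34 and -0.99 in the 4 later libraries, where B-cell markers lie between -0.80 and 0.17.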

How the data were processed

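Whole-spleen RNA was sequenced in 8 libraries made with Illumina's usual methods, per the labels' protocols. Per the submitters' processing notes, kallisto 0.46.2 and sleuth 0.30.0 were used. Settings, reference and rescaling: not given in the sources used here. For each gene and library the authors deposited 1 value, read here as a rescaled TPM signal, since columns do not sum to 1000000. All 19652 gene identifiers and symbols were found in RefSeq's annotation of mRhiFer1_v1.p, which served for names only.

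The main analysis used limma 3.58.1 (R 4.3.3) on log2(value + 1) for the 13542 genes with a mean of at least 1. A single fit of 4 state means held all 8 libraries, with a trended eBayes prior (4 residual and 3.29 prior degrees of freedom). Comparisons were the 6 pairs of states, November against summer, and 1 added later. Members and lists were chosen with earlier results of these data known, so lists are described by counts and medians without a test.

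Library values are given for the 2 genes with the smallest p in each of 8 roles, for MKI67, CDK1 and CCNB1, and, chosen after their values were seen, for PRC1, ANLN, HMMR and ASPM. From each other cell cycle list the text names the 3 smallest p in November against summer, any gene called in any comparison (except 1 not reported here), and 7 fixed genes. Alternatives tried: pseudocount 0.1; no filter or a mean of at least 5; 3 other scalings (median of ratios, quantile, equal totals); robust eBayes; a block for replicate number; a fit of the compared states alone; each library left out. In 5 simulated data sets for November against summer, with 200 of 13542 genes changed, limma called 27.6% of planted log2 differences of 1, 79% of 2 and 88.4% of 3, and 6.81% of its calls were false.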

Additional observations from a re-analysis of the deposited data

How the results depend on the processing

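Without a filter on low genes, the mitosis genes called numbered 12 in November against summer, 12 in arousal against summer and 3 in winter active against summer, and all genes called 244, 284 and 94. That setting also called 4 genes of the whole table in winter active against torpor, 1 in winter active against arousal and 3 in the mean of arousal and winter active against torpor. With a mean of at least 5, 1 mitosis gene was called in torpor against summer. The count over all genes for that setting is not given here. With only the compared states fitted, no mitosis gene was called in arousal or winter active against summer (0 each), and all genes called were 27 and 32, and 11 in torpor against summer. This alternative was not run for November against summer, where it is the same fit.

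Equal column totals gave mitosis medians of -1.30 in November, -1.02 in torpor, -1.23 in arousal and -1.50 in winter active against summer. All genes called were then 4752, 6131 and 778 in November, arousal and winter active against summer, 441 in arousal against torpor and 288 in the mean of arousal and winter active against torpor. Signs turned in November against summer for these genes: PRC1 to 0.13, CDKN1A to 0.056, CDKN1B to 0.16, NCAPH2 to 0.0029 and ANAPC2 to 0.17.

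The numbers 1 and 2 pair no animals as far as the labels say, and same-numbered libraries deviated together weakly (r from -0.19 to 0.32 over pairs of states). With a replicate block, 21 mitosis genes were called in November and 21 in arousal against summer, and 7 in winter active against summer. In each of these comparisons 30 of 31 mitosis genes lay below summer, all but ANLN. The count over all genes with that block is not given here, so a change in calls across the whole table was not set apart.

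With 1 library left out, the lone sample of its state is assumed to vary like the others. Mitosis genes called then ranged from 1 to 28 (November against summer), 0 to 8 (torpor against summer), 0 to 24 (arousal against summer) and 0 to 22 (winter active against summer), and were 0 elsewhere. Mitosis medians ranged from -2.14 to -1.38, -1.78 to -0.97, -2.32 to -1.58 and -2.36 to -1.58 in the same order. They ranged from -0.94 to -0.36 (arousal against torpor), -0.69 to -0.49 (winter active against torpor), -0.23 to 0.29 (winter active against arousal) and -0.80 to -0.53 (the mean of both against torpor). All genes called ranged from 45 to 634, 9 to 314, 26 to 688 and 15 to 382 against summer, from 0 to 2 in arousal against torpor and from 0 to 1 in winter active against arousal, and were 0 in the other 2 comparisons. The difference of ANLN was highest, at 0.57, without summer active 2 and turned to -0.51 without summer active 1, -0.25 without torpor 2, -0.12 without arousal 2 and -0.11 without winter active 2. The cause of these changes was not tested.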
